A study of Mus musculus with 3 samples.

Results

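This account covers the GATA transcription factors and their Friend-of-GATA (FOG) cofactors, 8 genes of the 21153 that could be named on the array. They are Gata1, Gata2, Gata3, Gata4, Gata5, Gata6, Zfpm1 (which encodes FOG1) and Zfpm2 (FOG2), chosen by family and not by their values. All probes whose RefSeq accession belongs to one of these symbols were taken, 11 of 28025 named probes. Each GATA gene had 1 probe, Zfpm1 had 3 and Zfpm2 had 2. All 11 lay well above background in both RNAs on all 3 arrays, so each of the 8 genes was among the 14705 tested and no value is only a bound.

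The RNA came from mouse embryoid bodies, aggregates of differentiating embryonic stem cells, at day 8 of a cardiac differentiation protocol. One RNA was from Hopx-/- cultures given the Wnt inhibitor XAV939 at 12.5 µM, and the other from Hopx+/- cultures, a heterozygote and not a wild type. Hopx encodes a homeodomain protein of the developing heart that does not bind DNA itself. XAV939 blocks tankyrase, and this block stabilises axin. Both kinds of line were derived from blastocysts and kept on feeder cells, and both differentiated in medium with VEGF, bFGF, FGF10 and ascorbic acid. The labels do not say how many lines stand for each genotype. The 3 two-colour arrays, called biological replicates in the series record, each set the first RNA directly against the second. Genotype and inhibitor change together in this comparison and cannot be told apart.

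GATA factors are zinc finger proteins named for the DNA core GATA that they bind. By long-standing usage Gata1, Gata2 and Gata3 are the blood group: Gata1 drives red cells, megakaryocytes and mast cells, Gata2 acts in blood stem cells and endothelium, and Gata3 in T cells, trophoblast, kidney and nervous system. Gata4, Gata5 and Gata6 act in heart and endoderm. FOG proteins do not bind DNA in this role but dock on the amino-terminal GATA finger and bring in corepressors, FOG1 mainly in blood and FOG2 mainly in heart and gonad.

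By its labels each array carried null RNA in Cy5. Across probes, log2 Cy5 over Cy3 correlated at 0.825 between replicates 1 and 2, whereas replicate 3 gave -0.794 and -0.886 against them. Its sign was therefore reversed, and the authors' table of ratios has it reversed likewise. Hopx itself was then 6.54-fold lower in the null cultures (log2 ratio -2.71 ± 0.05, SD, n = 3). This is its brighter probe, with ratios of -2.65, -2.75 and -2.73. The dimmer Hopx probe gave -2.23, -2.12 and -2.42 (-2.25 ± 0.15, 4.77-fold lower). No source used here says whether either probe lies in the deleted stretch. The direction is likely and not settled. If the opposite one were true, Gata1 would be 2.02-fold lower, and Gata2, Gata3, Gata4, Gata6 and the gene value of Zfpm1 would be higher by the folds given below. With replicate 3 as labelled, none of the 8 genes passed limma's test and their adjusted p-values lay at 0.995 or above.

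Of the 8 genes, 1 rose and 5 fell (adjusted p below 0.05) in the null RNA. Gata1 rose, and Gata2, Gata3, Gata4, Gata6 and the brightest Zfpm1 probe fell. Gata5 and Zfpm2 did not pass. Among all genes tested 64.5% passed, 31.5% as higher and 33% as lower, so 6 of 8 is near the background and is no result about the family. Changes of 1 or more on the log2 scale were less common, 7.77% of genes as higher and 9.55% as lower, and Gata1 on the one side and Gata2, Gata3, Gata4 and Gata6 on the other were of that size. By probe, 8 of 11 passed, against 60.2% of all probes tested. With median centring in place of loess, 60.1% of the genes called were higher against 48.9%, and the median of all genes moved from -0.01 to 0.1. Without replicate 3 the same 6 genes passed with the same signs, and Zfpm2 passed too. In that setting the number called among all genes also went up, from 9488 to 10620. Markers of undifferentiated epiblast also differed between the RNAs: all 4 (Pou5f1, Fgf5, Otx2 and Dnmt3b) were higher, with summed intensities of 68599 to 96164 in the null RNA and 6193 to 9039 in the heterozygous RNA. Their part in the ratios below was not tested.

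**Figure D1:**
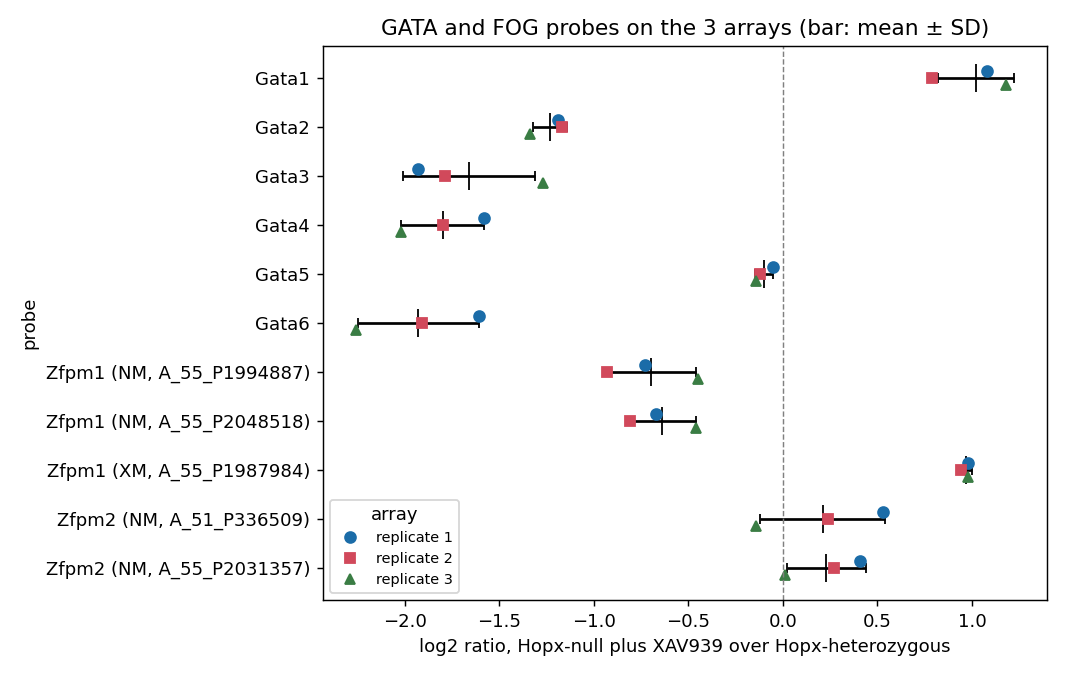
Log2 ratio of Hopx-null plus XAV939 over Hopx-heterozygous RNA (horizontal axis) for each of the 11 probes (vertical axis), with one symbol per array and a bar for the mean ± SD of the 3 arrays. Gata2, Gata3, Gata4 and Gata6 lie at or below -1.17 on every array and Gata1 at or above 0.79, while the Zfpm1 probes fall on both sides of 0.

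Gata1, the master regulator of red cells and megakaryocytes, was the member of the blood group that rose. Its normalized intensity (arbitrary units, after background correction and loess) was 514, 481 and 511 in the null RNA of replicates 1, 2 and 3 and 243, 279 and 225 in the heterozygous RNA. The null values all lay above the heterozygous ones. The log2 ratios of 1.08, 0.79 and 1.18 gave a mean of 1.02 ± 0.2, a 2.02-fold rise (adjusted p = 6.12e-05). With local backgrounds that are marked as outliers kept as deposited, the ratio was 0.68 and did not pass limma's test (adjusted p = 0.053). Over the other processing alternatives, leaving out replicate 3 as labelled, its adjusted p ran from 7.82e-06 to 0.0236, the latter with no normalization within arrays.

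The start of Gata1 is shown because it is the GATA gene that rose, with each match to a searched motif in capitals. The motifs were CACCC, which is read by Krüppel-like factors, and the GATA words, which are AGATAA and TGATAA as well as AGATAG and also TGATAG. Both strands were searched, so a CACCC on the opposite strand reads GGGTG. The RefSeq windows searched run from 250 bases before to 50 bases after the start, and the 250 bases before it are printed (build GRCm38.p6, minus strand, chrX:7967911-7968160):
Gata1: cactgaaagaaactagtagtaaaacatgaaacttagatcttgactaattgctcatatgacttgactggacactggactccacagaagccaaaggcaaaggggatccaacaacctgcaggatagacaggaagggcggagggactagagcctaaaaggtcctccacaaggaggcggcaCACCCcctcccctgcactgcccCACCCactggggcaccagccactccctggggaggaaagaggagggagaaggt
The window held 2 matches to CACCC and 0 to a GATA word. Over all 32851 RefSeq windows of this length, 57.5% held a CACCC and 29.8% a GATA word. A match is a description of the letters only.

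Gata2, which keeps blood stem cells and is also expressed in endothelium, fell by a similar factor. Its intensity was 216, 246 and 204 in the null RNA and 494, 553 and 516 in the heterozygous RNA. The groups did not overlap, and the ratios of -1.19, -1.17 and -1.34 were the tightest of the genes that fell. The mean was -1.23 ± 0.09, 2.35-fold lower (adjusted p = 1.04e-05). The call was lost without any normalization within arrays (-1.04, adjusted p = 0.0607, over the other alternatives from 1.22e-06). With marked backgrounds kept it was -0.79 (adjusted p = 0.0477).

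Gata3, a factor of T cells, trophoblast and sympathetic neurons, fell more than Gata2 on 2 of 3 arrays. It measured 133, 113 and 133 in the null RNA against 506, 389 and 321 in the heterozygous RNA. The null values are the dimmest of the 11 probes' values, close to the offset of 50 that background correction adds, and the offset draws a log2 ratio towards 0. The ratios were -1.93, -1.79 and -1.27, with replicate 3 nearest to 0, and the mean was -1.66 ± 0.35, 3.17-fold lower (adjusted p = 1.1e-05). The scanner software's own log ratio, which has no such offset, gave -2.35, and marked backgrounds kept gave -0.83, both past the test.

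The Gata3 window is shown as the only one of the 6 windows found, for 5 of the 8 genes, that held a GATA word. The word TGATAG lies at bases 37 to 42 after the start, and of 3 CACCC matches, all on the opposite strand, 2 overlap by 1 base. The 250 bases before the start (chr2:9878601-9878850) and 30 bases around the word (chr2:9878551-9878580), both GRCm38.p6 and minus strand, read:
Gata3: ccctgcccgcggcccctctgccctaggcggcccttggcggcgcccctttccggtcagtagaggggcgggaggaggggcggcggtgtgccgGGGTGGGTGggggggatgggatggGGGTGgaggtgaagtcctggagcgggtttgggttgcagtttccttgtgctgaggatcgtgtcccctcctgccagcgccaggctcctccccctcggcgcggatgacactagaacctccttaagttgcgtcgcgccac
Gata3 GATA word: ctgcctggcgccgtctTGATAGtttcagaa
The windows of Gata1, Gata2 (2 starts), Gata5 and Zfpm1 held 0 GATA words.

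In the heart and endoderm group, Gata4 and Gata6 fell and Gata5 did not pass. Gata4, which acts with Nkx2-5 and Tbx5 on heart genes, measured 3064, 2618 and 2231 in the null RNA and 9188, 9130 and 9066 in the heterozygous RNA. The heterozygous values were close to one another and the null values spread more. The ratios were -1.58, -1.80 and -2.02, with a mean of -1.80 ± 0.22, 3.49-fold lower (adjusted p = 2.56e-06).

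Gata6, which is needed for visceral endoderm and outflow tract, had the lowest ratio of the family. Its intensity was 1724, 2043 and 1026 in the null RNA and 5276, 7697 and 4913 in the heterozygous RNA, without overlap. The ratios were -1.61, -1.91 and -2.26 and the mean -1.93 ± 0.32, 3.81-fold lower (adjusted p = 3.89e-06). Only 2.18% of the genes tested had a lower mean ratio, against 2.68% for Gata4. Gata4 was above Gata6 by 0.03, 0.11 and 0.24 on the 3 arrays (0.13 ± 0.1), an exact sign-flip permutation p of 0.25. That is the smallest two-sided p that 3 arrays allow, so no pair of members can be told apart by this test. All calls of Gata3, Gata4 and Gata6 held under each of the 14 alternatives other than replicate 3 as labelled.

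Gata5, a factor of endocardium and gut, measured 340, 331 and 358 in the null RNA and 352, 360 and 394 in the heterozygous RNA. The groups overlapped, although the ratio was below 0 on each array (-0.05, -0.12 and -0.14). The mean was -0.10 ± 0.05 (adjusted p = 0.377), with a 95% interval from -0.33 to 0.12. Without normalization within arrays its sign turned (0.09, adjusted p = 0.926).

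**Figure D2:**
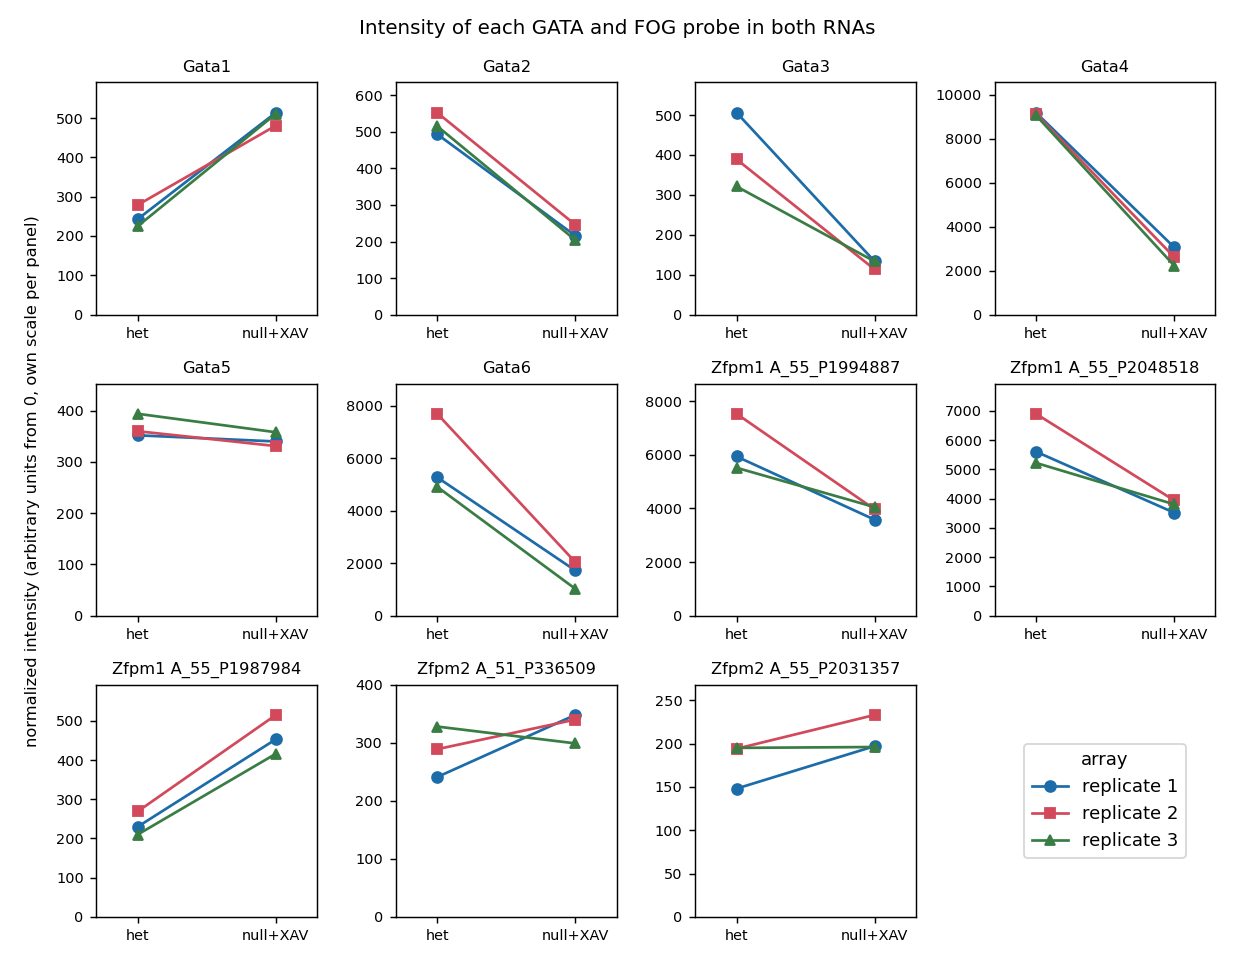
Normalized intensity (vertical axis, arbitrary units from 0, a separate scale in each panel) of each of the 11 probes in heterozygous and null plus XAV939 RNA, with a line per array. The lines of Gata4 run from about the same heterozygous level, 9066 to 9188, to null levels of 2231 to 3064, and those of Gata5 stay nearly flat.

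The usual grouping did not separate the 6 GATA genes. The blood group held 1 gene that rose and 2 that fell, and the heart and endoderm group 2 that fell and 1 that did not pass. The mean ratio of Gata1, Gata2 and Gata3 lay above that of Gata4, Gata5 and Gata6 by 0.4, 0.56 and 1 on the 3 arrays (0.65 ± 0.31), and with replicate 3 as labelled by -0.01. Within the blood group Gata1 lay above Gata2 by 2.25 ± 0.28 and above Gata3 by 2.68 ± 0.29. Within the other group Gata5 lay above Gata6 by 1.82 ± 0.28. Gata3 was lower than Gata4 on 1 array and higher on 2 (0.14 ± 0.56), a difference smaller than its spread, and its sign turned with the scanner software's log ratio (-0.57), with median centring (-0.12) and without replicate 3 (-0.17). In order of the mean ratio, Gata6, Gata4 and Gata3 were neighbours whose differences were of the size of their spread, followed by Gata2, Zfpm1, Gata5, Zfpm2 and Gata1.

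Zfpm1, the gene of the Gata1 cofactor FOG1, gave opposite answers from different probes. The probe A_55_P1994887, designed on NM_009569, measured 3582, 3968 and 4051 in the null RNA and 5941, 7534 and 5519 in the heterozygous RNA. Its ratios of -0.73, -0.93 and -0.45 gave -0.70 ± 0.24, 1.62-fold lower (adjusted p = 0.000763 over genes). A second probe on the same transcript, A_55_P2048518, gave -0.67, -0.81 and -0.46 (-0.64 ± 0.18, adjusted p = 0.000922 over probes), so these probes moved together.

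The third Zfpm1 probe, A_55_P1987984, carries the accession of a predicted transcript, XM_006530851. It measured 453, 515 and 416 in the null RNA and 230, 269 and 210 in the heterozygous RNA, with no overlap. Its ratios of 0.98, 0.94 and 0.98 gave 0.97 ± 0.03, 1.96-fold higher (adjusted p = 4.6e-05 over probes). It lay above the mean of the other Zfpm1 probes by 1.68, 1.80 and 1.43 (1.64 ± 0.19). Such opposite calls were made for 5.24% of the 3799 genes that had more than 1 tested probe, and for 13.6% of those with 3 or more. No source used here says which exon each probe reads, and the direction of Zfpm1 is uncertain. The mean over its probes was -0.13 (adjusted p = 0.286). The lower call was also lost with median centring (-0.43, adjusted p = 0.143) and with no normalization (-0.29, adjusted p = 0.722), and the higher call of the third probe with marked backgrounds kept (0.62, adjusted p = 0.0503).

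Zfpm2, the gene of the cardiac cofactor FOG2, did not pass with either probe. The brighter one measured 348, 340 and 299 in the null RNA and 241, 289 and 328 in the heterozygous RNA, with overlap. Its ratios were 0.53, 0.24 and -0.14 (0.21 ± 0.33, adjusted p = 0.199, 95% interval from -0.1 to 0.52). The dimmer one gave 0.41, 0.27 and 0.01 (0.23 ± 0.21, adjusted p = 0.109 over probes). Replicate 3 decided this: without it the brighter probe passed as higher (0.38, adjusted p = 0.00648, over the other alternatives to 0.821).

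**Figure D3:**
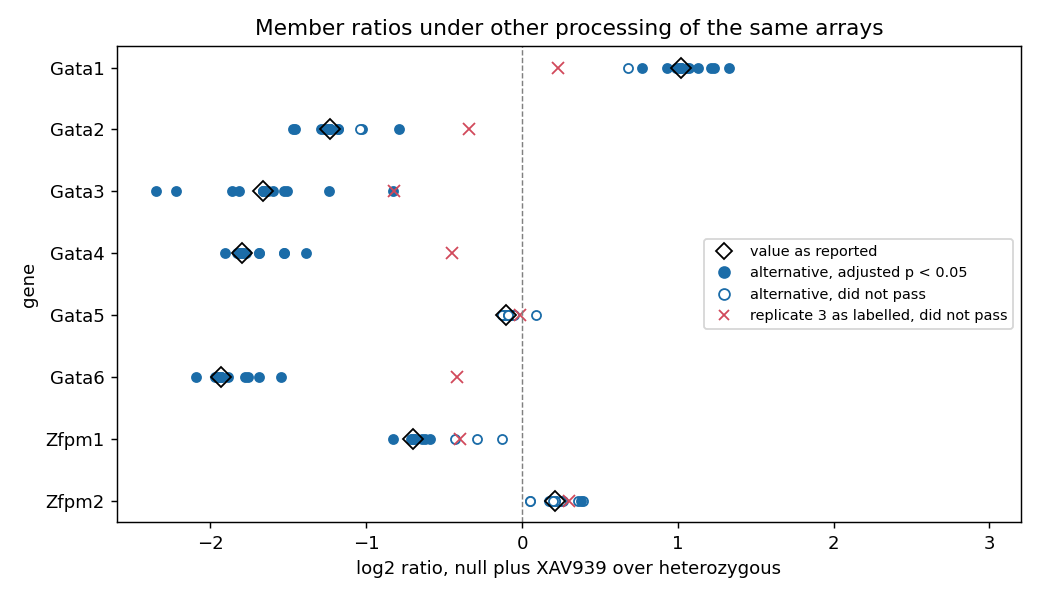
Log2 ratio of each of the 8 genes (horizontal axis) as reported (diamond), under 14 alternatives (circles, filled where the adjusted p is below 0.05) and with replicate 3 as labelled (cross). Gata3, Gata4 and Gata6 stay below 0 with filled circles throughout, and Zfpm1 has open circles at -0.43, -0.29 and -0.13.

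Genes known to act with the blood GATA factors rose more often than they fell. Of 19 tested partners 11 were higher (57.9%, against 31.5% of all genes) and 2 lower (10.5%, against 33%). Their median ratio was 0.41 against -0.01 over all genes. Myb, a factor of blood progenitors, rose most (3.59 ± 0.24), followed by the ETS factor Fli1 (1.64 ± 0.26). Of the genes whose proteins form a complex with Gata1, chosen after their values were seen, Tal1 (1.06 ± 0.37, adjusted p = 0.000184) and Lmo2 (1.21 ± 0.13, adjusted p = 1.37e-05) rose, and the bridging factor Ldb1 did not pass (-0.12 ± 0.19, adjusted p = 0.385). The red cell factor Klf1 did not pass either (-0.03 ± 0.19, adjusted p = 0.828). Runx1, the regulator of the first blood stem cells, fell (-1.42 ± 0.42), but its second probe did not pass (-0.07), and the corepressor Cbfa2t3 fell (-0.45 ± 0.24). Without replicate 2 only 1 partner was lower, and with marked backgrounds kept 6 were higher and 1 lower. Median centring or no normalization left 1 lower. Of the 11 that rose, Ikzf1 was well above background in the heterozygous RNA on 0 of 3 arrays.

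Genes of megakaryocytes and mast cells, the other Gata1 lineages, moved in both directions within 1 list. Of 14 tested, 9 rose (64.3%, against 31.5% of all genes) and 4 fell (28.6%, against 33%), with a median of 0.7. All 9 that rose are known from megakaryocytes or platelets. The 4 that fell, Kit, Tpsb2, Hdc and Srgn, are known from mast cells, though Kit and Srgn are not confined to them. This split was seen after the values were known and is not a clean one by cell type. Of the 9, Ppbp was well above background in the heterozygous RNA on 0 of 3 arrays, and Gp9 and Gp5 on 1, so these entered the test through the null RNA. The platelet chemokine gene Pf4 rose to 3.83 ± 0.73 and the platelet receptor gene Treml1 to 1.91 ± 0.63, while the proteoglycan gene Srgn (-5.45 ± 0.44) and the mast cell tryptase gene Tpsb2 (-1.53 ± 0.35) fell. All 5 megakaryocyte markers, Gp9 among them, were higher, and their summed intensity was 5742 to 11171 in the null RNA and 801 to 1000 in the heterozygous RNA. The part of a change in cell makeup in the Gata1 ratio was not tested, and in these bulk samples fewer cells of a type and less RNA per cell cannot be told apart. Keeping the marked backgrounds left 2 genes of the list higher and 1 lower, and no normalization left 2 lower.

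Of 19 tested red cell genes, 6 rose (31.6%, against 31.5% of all genes) and 3 fell (15.8%, against 33%), with a median of 0.21. The embryonic globin gene Hbb-y (1.04 ± 0.47) was among those that rose, and Bcl2l1 (-0.79 ± 0.15) and Sptb (-0.73 ± 0.01, well above background in the null RNA on 1 of 3 arrays) fell most. Of 5 tested erythroid markers 2 rose, Hbb-bh1 and Hbb-y, while Hba-x (0.31 ± 0.58), Alas2 (0.37 ± 0.49) and Klf1 did not pass. Their summed intensity was 66285 to 80559 in the null RNA and 38253 to 62499 in the heterozygous RNA. Without replicate 2, 10 red cell genes rose, while over all genes 3515 were higher against 4635 with all arrays. If marked backgrounds were kept, 3 rose and 1 fell, and with median centring 1 fell. The authors' values gave 3 higher, and no normalization 2 higher and 0 lower.

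Endothelial genes, a field of Gata2 action, mostly rose although Gata2 fell. Of 18 tested, 11 were higher (61.1%, against 31.5% of all genes) and 5 lower (27.8%, against 33%), with a median of 0.45. The ETS factor Etv2 (1.68 ± 0.26) and the guidance receptor gene Robo4 (1.49 ± 0.13) rose most, and Sox17 (-2.53 ± 0.1), which endoderm also expresses, and Vcam1 (-0.7 ± 0.17) fell most. Of 5 endothelial markers 3 rose and 1 fell, with summed intensities of 6588 to 8163 in the null RNA and 3923 to 5586 in the heterozygous RNA. Without replicate 2 only 3 genes of the list were lower. Keeping marked backgrounds left 5 higher and 1 lower, with Etv2 among those that did not pass, and with median centring 1 fell. No normalization left 6 higher and 1 lower, and the authors' values 3 lower.

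Trophoblast genes, where Gata2 and Gata3 act, were mostly lower. Of 14 tested, 10 fell (71.4%, against 33% of all genes) and 3 rose (21.4%, against 31.5%), with a median of -1.16. The keratin gene Krt18 (-2.3 ± 0.22), which other epithelia also express, and the placental factor Gcm1 (-1.87 ± 0.52) fell most. Eomes (1.01 ± 0.58) and Esrrb (0.98 ± 0.21), both also expressed in the early embryo proper, rose most. Of the trophoblast markers, Elf5 was not among the genes tested. Of the 3 tested markers 2 fell and 0 rose. The summed intensity of these markers was 1042 to 1087 in the null RNA and 1919 to 3042 in the heterozygous RNA. Their part in the lower Gata3 was not tested. Only 1 gene of the list rose if marked backgrounds were kept, and Eomes did not pass. No normalization left 6 lower.

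Most heart genes that work with or under Gata4 fell. Of 15 tested partners 9 fell (60%, against 33% of all genes) and 1 rose (6.67%, against 31.5%). Their median was -0.67, and the 5 that did not pass lay between 0.04 and 0.22. The T-box factor Tbx3 (-3.16 ± 0.24) and the progenitor factor Isl1 (-1.89 ± 0.05) fell most, and Mesp1, a factor of early mesoderm, rose (0.86 ± 0.18, well above background in the heterozygous RNA on 1 of 3 arrays). Without replicate 3, 3 partners rose. Of 19 tested targets 17 fell (89.5%) and 2 rose (10.5%), with a median of -1.52. The myosin genes Myl3 (-2.7 ± 0.07) and Myh7 (-2.63 ± 0.36) fell most. The gap junction gene Gja5 (1.28 ± 0.27), which endothelium also expresses, and Cdk4 (0.38 ± 0.17) rose. All 5 cardiomyocyte markers were lower, with summed intensities of 36111 to 56230 in the null RNA and 112306 to 123075 in the heterozygous RNA. Their part in the Gata4 ratio was not tested. Without replicate 1 or without replicate 2 only 1 target rose. If marked backgrounds were kept, 11 targets fell and 0 rose, and 0 partners rose. No normalization left 10 targets lower and 1 higher, and 4 partners lower and 0 higher. Median centring or the authors' values left 1 target higher.

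Endoderm genes that work with or under Gata4 and Gata6 were mostly lower. Of 12 tested partners 11 fell (91.7%, against 33% of all genes) and 1 rose (8.33%, against 31.5%), with a median of -1.81. The forkhead factors Foxa1 (-4.34 ± 0.11) and Foxa2 (-4.27 ± 0.14) fell most, and Foxh1, a partner of Nodal signalling, rose (1.79 ± 0.28). Of 29 tested targets 27 fell (93.1%) and 2 rose (6.9%), with a median of -2.77. The endocytic receptor gene Cubn (-5.54 ± 0.61) and the retinol carrier gene Rbp4 (-5.18 ± 0.36) fell most. The genes that rose were the lactase gene Lct (1.2 ± 0.28, well above background in the heterozygous RNA on 2 of 3 arrays) and the thrombomodulin gene Thbd (0.39 ± 0.06), and without replicate 1 or without replicate 2 only 1 rose. All 5 visceral endoderm markers were lower, with summed intensities of 2356 to 5719 in the null RNA and 51858 to 74610 in the heterozygous RNA. Their part in the Gata4 and Gata6 ratios was not tested. With marked backgrounds kept 0 targets rose, and 1 rose with median centring, with no normalization and in the authors' values.

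**Figure D4:**
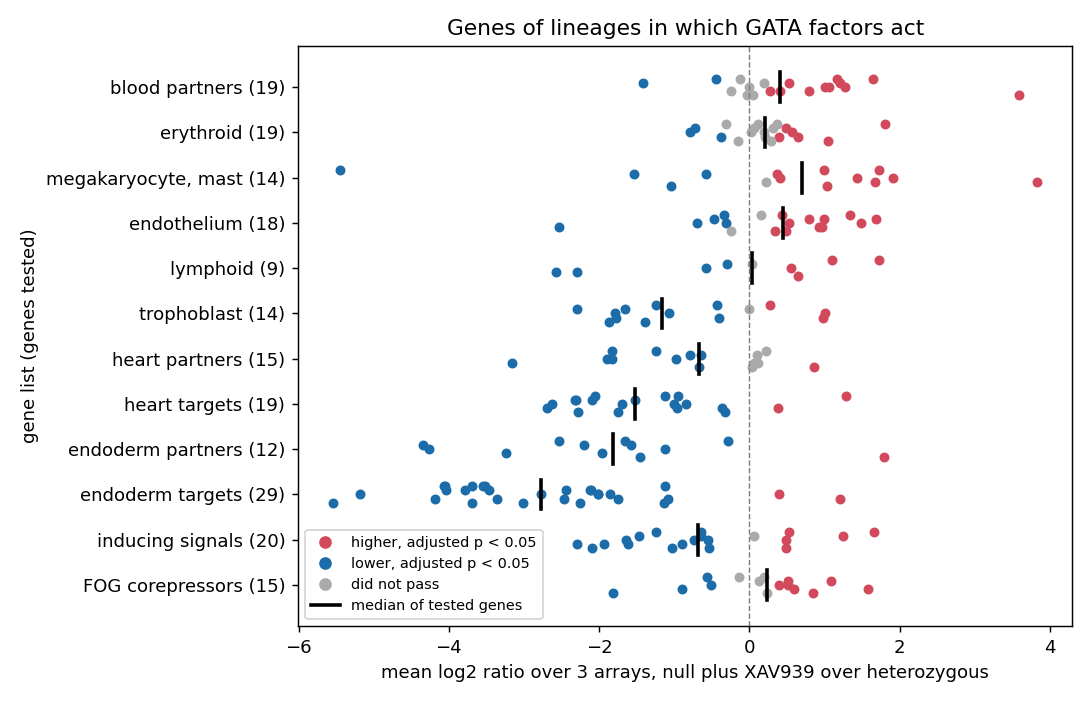
Mean log2 ratio over 3 arrays (horizontal axis) of the tested genes in 12 lists (vertical axis, genes tested in brackets), coloured by call, with a black bar at each list's median. The medians of the blood, platelet and endothelial lists lie between 0.21 and 0.7, and those of the heart and endoderm lists between -2.77 and -0.67.

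Genes of signalling pathways known to induce GATA genes in the embryo were mostly lower. The list held ligands, receptors and signal transducers as well as response genes such as Id2. Of 20 tested genes 14 fell (70%, against 33% of all genes) and 5 rose (25%, against 31.5%), with a median of -0.69. The BMP target Id2 (-2.29 ± 0.19) and the retinoic acid receptor gene Rarb (-2.09 ± 0.18) fell most. The retinoic acid synthesis gene Aldh1a2 (1.66 ± 0.56) and the ligand gene Nodal (1.24 ± 0.17) rose most. Without replicate 1 or without replicate 2, 3 genes rose, and with median centring 9 fell and 3 rose. No normalization left 6 lower and 2 higher.

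The corepressors that FOG proteins recruit moved in both directions. Of 15 tested genes of the NuRD and CtBP complexes 7 rose (46.7%, against 31.5% of all genes) and 4 fell (26.7%, against 33%). Their median was 0.23. The corepressor genes Ctbp2 (1.58 ± 0.47) and Hdac1 (1.08 ± 0.39) rose most, and the histone binding subunit gene Rbbp7 (-1.81 ± 0.15) and the methyl-CpG reader gene Mbd2 (-0.9 ± 0.41) fell most. With marked backgrounds kept 2 fell and with median centring 1, and Mbd2 did not pass under either. No normalization left 3 higher and 1 lower. Another list held 10 genes taken for GATA-type fingers or as related factors, though Arid5b encodes no GATA-type finger. Of this list 2 rose (20%, against 31.5% of all genes) and 4 fell (40%, against 33%). Mta2 was at 0.51 ± 0.01, Zglp1 at 0.42 ± 0.19, Arid5b at -1.67 ± 0.17 and Gatad2b at -0.57 ± 0.06. Without replicate 3, 4 genes of this list rose. With marked backgrounds kept 1 rose and 2 fell, and with median centring 1 rose and 1 fell, and neither Zglp1 nor Gatad2b passed under either. No normalization left 0 higher and 1 lower.

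Genes whose 3 ratios lay nearest to those of a member were found by Euclidean distance over the 3 arrays. Nearest to Gata4 were Tbx20, a T-box factor of the heart (distance 0.0787), Slc38a6 (0.115) and Nebl, a Z-disc gene (0.132). Nearest to Gata6 were Abcc4 (0.0924), B2m (0.107) and Zim1 (0.107). Nearest to Gata1 were the germ cell and stem cell gene Dppa3 (0.108), Grk6 (0.12) and the glycolytic gene Pkm (0.124). Gata2 had Tnfaip3 (0.0365), Ccnd3 (0.0393) and Llgl2 (0.0757), and Gata3 had Acadvl (0.0389), Fam8a1 (0.109) and Fam83e (0.169). Zfpm1 had Cdkl1 (0.0258), Vrk3 (0.0457) and Myh14 (0.0483) by its brightest probe. The number of genes within 0.25 was 1134 for Gata5, 227 for Zfpm1, 174 for Zfpm2, 118 for Gata2, 31 for Gata4, 28 for Gata1, 19 for Gata6 and 11 for Gata3.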

How the data were processed

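The deposited files are the scanner output of 3 two-colour Agilent arrays. The authors extracted the intensity of each spot with Agilent Feature Extraction. Its version is 8.5.1.1 per the submitters' processing notes, while the files' first block reads 11.5.1.1. The deposited log10 ratio of that software served as an alternative. The authors' deposited value table holds log2 ratios, and no source used here states how they were made. Set against log2 Cy5 over Cy3 its slopes were 0.688, 0.799 and -0.797, and its medians 0.086, -0.08 and 0.053.

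Here limma 3.58.1 (R 4.3.3) was used for normexp background correction (offset 50) and for loess within arrays. Local backgrounds marked as outliers were first replaced by the channel's median, a choice made after the data were seen. Outlier spots were left out. Probes were tested if on all 3 arrays either colour was well above background, and the brightest such probe stood for its gene. A gene could thus enter through 1 RNA alone, as Prox1, Fabp1 and Pln, all lower, did in the lists through the heterozygous RNA. The mean log2 ratio was tested against 0 with lmFit and eBayes, and p-values were adjusted by Benjamini-Hochberg over all 14705 genes, or all 24376 probes where stated. Between 56.6% and 68% of spots per channel were well above background, and the number of arrays limits the precision. A gene counts as higher or lower at an adjusted p below 0.05. The members, lists and tests were chosen with earlier results of these data known. From each list, up to 2 genes with the largest rise and 2 with the largest fall among those past the test with one sign on all arrays are named, with 3 nearest genes per member. Some genes that this rule or the marker lists would name are not reported here.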

Additional observations from a re-analysis of the deposited data

How the results depend on the processing

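The direction of replicate 3 limits every value here, and 3 arrays limit the rest. With replicate 3 as labelled, 0 genes passed limma's test as higher and 0 as lower (13 and 27 at an unadjusted p below 0.05), likewise 0 and 0 of the list genes. The ratios were then 0.23 for Gata1, -0.34 for Gata2, -0.82 for Gata3, -0.45 for Gata4, -0.42 for Gata6 and -0.40 for Zfpm1, and the blood group minus the heart and endoderm group was -0.01. Over all genes, 2664 were higher and 2252 lower with marked backgrounds kept, and 3035 and 2019 with median centring. No normalization gave 1831 and 793, and the median of all genes was then 0.24. Without replicate 1, 3890 were higher and 4150 lower. The counts were 3515 and 3717 without replicate 2, and 5278 and 5342 without replicate 3. With all arrays they were 4635 and 4853. List genes called higher were 65, but 31 with marked backgrounds kept and 37 with no normalization, and those called lower were 114, but 68 with no normalization. Gata1 lost its call with marked backgrounds kept (0.68), Gata2 with no normalization (-1.04), and Zfpm1 with the mean over probes (-0.13), median centring (-0.43) and no normalization (-0.29). Gata5 was 0.09 with no normalization. Zfpm2 ranged from 0.05 to 0.38 with 1 replicate left out. The cause was not tested.

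The predicted-transcript probe of Zfpm1 lay above the others by 1.40 in the authors' values, 1.86 in the scanner software's log ratio, 1.85 with half-floored background, 1.21 with marked backgrounds kept, 1.42 with median centring, 1.42 with no normalization and 0.68 with replicate 3 as labelled. Gata3 minus Gata4 reversed to -0.57 (scanner log ratio), -0.40 (half-floored), -0.12 (median centring), -0.01 (no background subtraction), -0.12 (no normalization), -0.36 (as labelled) and -0.17 (without replicate 3, to 0.38 without replicate 1). Gata3 minus Gata6 reversed to -0.40 (scanner log ratio), -0.26 (half-floored), -0.39 (as labelled) and -0.10 (without replicate 3, to 0.56 without replicate 1), and Gata4 minus Gata6 to -0.03 (as labelled). The brighter minus the dimmer Zfpm2 probe was -0.02 and reversed to 0.10 (authors' values), 0.03 (scanner log ratio, median centring and no normalization), 0.08 (as labelled) and 0.05 (without replicate 3, and -0.09 without replicate 1).

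Each array holds both RNAs, so the test of its ratio against 0 is already the paired comparison, and the ratios form a single group. By their barcodes replicates 2 and 3 shared a slide. With 3 arrays duplicateCorrelation gave no value, so the within-slide correlation was estimated from median squared contrasts (-0.267). A negative value narrows the standard error, and the genes called went from 9488 to 10517 with slide as a block. All 6 calls of members held, but this setting could hardly lose a call and is no check on them.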

Other observations

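Lists for tissues where Gata2 or Gata3 act outside blood and trophoblast showed no single direction. Of 9 tested lymphoid genes 4 rose (44.4%, against 31.5% of all genes) and 4 fell (44.4%, against 33%), with a median of 0.04. The T cell factor Bcl11b (1.73 ± 0.23) and the Wnt effector Lef1 (1.1 ± 0.19) rose most, and Zbtb16 (-2.58 ± 0.33) and Id2 (-2.29 ± 0.19) fell most. With marked backgrounds kept 2 rose and 2 fell, and Bcl11b did not pass. No normalization left 2 higher and 2 lower, and median centring 2 lower. Of 8 tested neural genes 1 rose (12.5%) and 2 fell (25%), with a median of -0.08. Tal2 was at 2.5 ± 0.18, Isl1 at -1.89 ± 0.05 and Ret at -0.48 ± 0.18. Ret was well above background in the null RNA on 1 of 3 arrays. Without replicate 3, 3 neural genes rose. Marked backgrounds kept, median centring, no normalization and the authors' values each left 1 lower, and Ret did not pass under any of these. The neural markers Sox1 and Tubb3 had summed intensities of 1838 to 2203 in the null RNA and 299 to 337 in the heterozygous RNA.

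A list of 12 fibroblast genes was chosen because the lines were kept on feeder cells. Of these 2 rose (16.7%, against 31.5% of all genes) and 5 fell (41.7%, against 33%), with a median of -0.18. Thy1 (0.97 ± 0.06) and Prrx1 (0.52 ± 0.17) rose, and Col1a1 (-2.81 ± 0.38) and Fbln1 (-2.25 ± 0.35) fell most. Prrx1, well above background in the heterozygous RNA on 2 of 3 arrays, did not pass with marked backgrounds kept, median centring, no normalization or the authors' values, which each left 1 gene higher, and marked backgrounds kept left 3 lower. The summed intensity of 4 feeder markers was 8994 to 15819 in the null RNA and 17476 to 31065 in the heterozygous RNA. Of 5 macrophage markers, 3 were tested and 2 fell, with sums of 1111 to 1587 and 4036 to 6360. Of 3 mast cell markers only Kit was tested, and it was lower (-0.58), at 1360 to 1882 against 2197 to 2933.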
